A study of Mus musculus with 10 samples.

Results

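The retinoid genes followed here are 9 of the 43346 genes in the count table of a mouse neural crest line: the cellular retinoic acid binding proteins *Crabp1* and *Crabp2*, the retinoic acid receptors *Rara*, *Rarb* and *Rarg*, the retinaldehyde reductases *Dhrs3* and *Dhrs4*, and the retinaldehyde dehydrogenases *Aldh1a1* and *Aldh1a3*. They were found by their gene symbols, and each symbol occurred once. They had been chosen with their values in knockout against wildtype cells in view, so their values are given as a description. Where counts of calls by a test are printed for them, nothing is read from these.

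The cells were O9-1, an established mouse line of cranial neural crest cells that was kept on Matrigel in conditioned medium. RNA came from 4 wildtype samples (WT/1 to WT/4), from 3 clones with CRISPR/Cas9 knockout of Kat5 (Kat5/1 to Kat5/3) and from 3 clones with knockout of Ep400 (Ep400/1 to Ep400/3). Kat5 is the histone acetyltransferase and Ep400 the chromatin remodeling ATPase of the Tip60/Ep400 complex. Each knockout library is a separate clone that was grown from a sorted cell, whereas the wildtype samples are cells of the original line, so the step of cloning and the knockout cannot be told apart. As described for these clones, the line carries extra chromosome sets, all Kat5 alleles were frameshifted, and in Ep400/2 and Ep400/3 some Ep400 alleles kept the reading frame with a short deletion at the ATP binding site. The medium described for this line held fetal calf serum and added FGF2, and the retinoid content of the serum is not given. Beyond the medium, no retinoid or other agent was added as a treatment in any group as far as the labels state.

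Vitamin A reaches cells as retinol and is turned into retinoic acid in a pair of oxidation steps. Retinol dehydrogenases such as *Rdh10* make retinaldehyde, which *Dhrs3* can reduce back to retinol, and enzymes of the Aldh1a family oxidize retinaldehyde to retinoic acid. *Crabp1* and *Crabp2* bind retinoic acid in the cytoplasm, Cyp26 enzymes break it down, and the receptors *Rara*, *Rarb* and *Rarg*, paired with retinoid X receptors, act on transcription at response elements in DNA. Cranial neural crest cells form much of the skeleton and connective tissue of the face, and both lack and excess of retinoic acid disturb this development.

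Between 30968945 and 48301792 reads per library were counted on genes, and mitochondrial genes took 0.893% to 3.24% of them. Levels are given as CPM, which are counts relative to the size of a library after TMM scaling over all 10 libraries, or, where genes are compared with each other, as CPM per kilobase of exon (RPKM). Kat5 was at 48.8 to 57.5 CPM in wildtype cells and 16.4 to 23.2 CPM in the Kat5 ko clones, and Ep400 at 157 to 165 CPM in wildtype cells and 54.7 to 61.4 CPM in the Ep400 ko clones. Of 15 markers of cranial neural crest, 10 exceeded 10 CPM in every wildtype library, 10 in every Kat5 ko clone and 11 in every Ep400 ko clone, whereas *Sox10*, *Foxd3* and *Ngfr* were below 1 CPM in every library. The summed level of 6 smooth muscle markers was 53.7 to 78.3 CPM in wildtype cells, 63 to 758 CPM in Kat5 ko clones and 19 to 90.7 CPM in Ep400 ko clones, and the highest sum belonged to Kat5/1 with 505 CPM of *Acta2*. The sum of 5 chondrocyte markers was 21.8 to 32.9 CPM in wildtype cells, 6.2 to 58.7 CPM in Kat5 ko clones and 6.22 to 9.85 CPM in Ep400 ko clones. For 5 neuronal markers the sums were 0.522 to 0.798, 0.165 to 0.524 and 1.1 to 3.56 CPM in the same order, and for 5 glial markers 1.44 to 2.25, 0.989 to 2.18 and 1.85 to 7.07 CPM. They were 1.62 to 4.7, 0.309 to 0.827 and 0.516 to 0.921 CPM for 5 epithelial markers, and 0.983 to 1.68, 0.198 to 0.717 and 0.219 to 0.473 CPM for 4 endothelial markers. For 5 osteoblast markers the sum was 53.7 to 124 CPM and for 4 blood markers 2.51 to 7.94 CPM over all libraries. Of 27 markers tested in Ep400 ko against wildtype, edgeR called 4 higher (the crest genes *Pax3*, *Tfap2a* and *Snai2* and the neuronal *Stmn2*) and 4 lower (the cartilage gene *Acan*, the keratins *Krt8* and *Krt18*, and the endothelial *Pecam1*). Of all genes tested in that comparison, 13.7% were called. *Acan* fell from 5.56 to 24.5 CPM in wildtype cells to 0 to 0.188 CPM in Ep400 ko clones. In Kat5 ko against wildtype, edgeR called 0 of 24 markers tested, beside 0.625% of all genes. Before adjustment, 11 of the markers had a p of at most 0.05, beside 2996 of 13434 genes. The part of these markers in the values of the retinoid genes was not tested. In these bulk samples, fewer cells of a type and less RNA per cell cannot be told apart.

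In wildtype cells the 9 genes covered a very wide range per length of transcript. *Crabp1* led with 3710 ± 977 RPKM (SD, n = 4) and was between the 2nd and the 6th most abundant of 42462 genes with a known exon length. *Rarg* followed with 74.4 ± 10.2 RPKM, *Crabp2* with 50.5 ± 8.66 RPKM, *Rara* with 10.1 ± 1.05 RPKM and *Dhrs4* with 5.35 ± 0.501 RPKM. *Dhrs3* was at 0.914 ± 0.102 RPKM, *Aldh1a3* at 0.176 ± 0.0949 RPKM and *Aldh1a1* at 0.0682 ± 0.017 RPKM. Neighbours in this order did not overlap between the 4 wildtype libraries, except *Aldh1a3* and *Aldh1a1*. *Crabp1*, *Crabp2*, *Rarg* and *Rara* were thus all above the enzymes *Aldh1a1* and *Aldh1a3*, which make retinoic acid.

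In the knockout clones, *Crabp1* and *Rarg* kept the first and second place in both groups. Among Kat5 ko clones, the ranges of *Rara*, *Crabp2* and *Dhrs4* ran into each other, with means of 10.7, 9.02 and 8.29 RPKM. Among Ep400 ko clones, *Dhrs4* reached 24 ± 3.59 RPKM (SD, n = 3) and stood above *Rara* with 10.9 ± 2.67 RPKM without overlap. *Rarb* ended the order in every group.

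**Figure D1:**
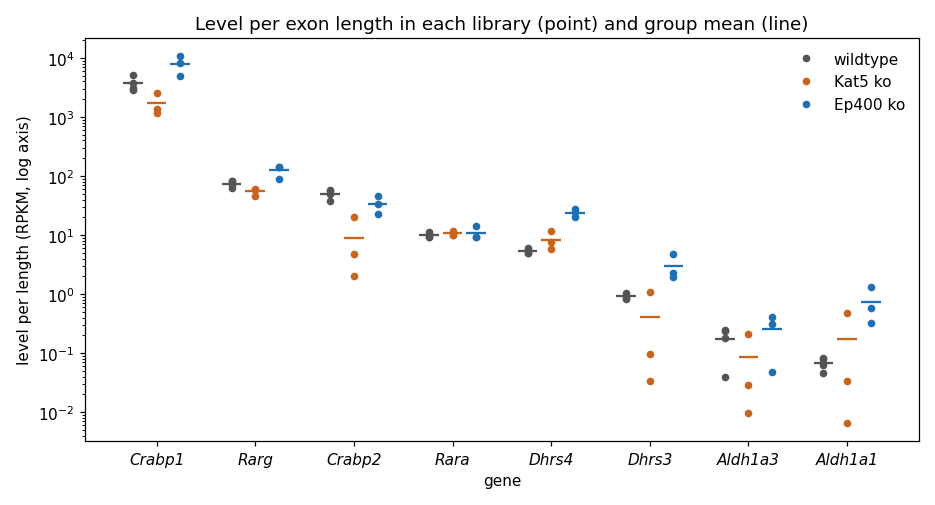
Level per exon length (RPKM, log axis) of 8 retinoid genes, sorted by their wildtype mean, with a point for each library and a line for the mean of 4 wildtype, 3 Kat5 ko and 3 Ep400 ko libraries. Crabp1 lies far above all others, and Dhrs4 in the Ep400 ko clones lies above Rara; Rarb, with counts in 1 library, is not drawn.

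*Crabp1* (ENSMUSG00000032291) lies on chromosome 9 (54764748 to 54773110, plus strand, GRCm38) and binds retinoic acid in the cytoplasm. It had 3030, 2520, 4060 and 2290 CPM in WT/1 to WT/4, 2070, 1110 and 951 CPM in Kat5/1 to Kat5/3, and 3970, 8550 and 6540 CPM in Ep400/1 to Ep400/3. All Kat5 ko clones were below the lowest wildtype library. Of the Ep400 ko clones, Ep400/2 and Ep400/3 were above all wildtype libraries, while Ep400/1 was below WT/3. The log2-fold change was −1.13 (standard error 0.32) for Kat5 ko and 1.09 (standard error 0.30) for Ep400 ko, both against wildtype, and the knockout groups differed from each other by 2.18 (standard error 0.42). As a share of all counts, *Crabp1* took 0.232% to 0.408% in wildtype cells, 0.0894% to 0.208% in Kat5 ko clones and 0.41% to 0.831% in Ep400 ko clones. In Ep400/2 it was the most abundant gene of all per length.

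*Crabp2* (ENSMUSG00000004885, chromosome 3, 87948666 to 87953376, plus strand) is the related protein that hands retinoic acid to the receptors in the nucleus. It had 73.4, 50.7, 66.4 and 76.4 CPM in wildtype cells and 2.7, 26.8 and 6.26 CPM in Kat5/1 to Kat5/3. The Kat5 ko clones were thus all below wildtype cells, but spread from 2.7 to 26.8 CPM among themselves. In Ep400/1 to Ep400/3, *Crabp2* was at 30.2, 44.7 and 59.7 CPM, which overlapped with the wildtype range only through Ep400/3. The log2-fold change was −2.53 (standard error 0.69) for Kat5 ko and −0.57 (standard error 0.24) for Ep400 ko. The 2 binding proteins were therefore both lower in Kat5 ko clones, whereas in Ep400 ko clones the mean of *Crabp1* was higher and that of *Crabp2* lower than in wildtype cells.

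The balance between the binding proteins can be read within each library, where scaling between libraries plays no part. Per length, there was 49.5 to 101 times as much *Crabp1* as *Crabp2* RNA in wildtype cells, with a median of 75 (n = 4). All Ep400 ko clones exceeded this range with ratios of 216, 315 and 181 in Ep400/1 to Ep400/3. Of the Kat5 ko clones, Kat5/1 had the highest ratio of all with 1270 and Kat5/3 had 251, while Kat5/2 with 68.3 stayed within the wildtype range.

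The receptor *Rarg* (ENSMUSG00000001288, chromosome 15, 102234938 to 102257517, minus strand) had 351, 264, 354 and 299 CPM in wildtype cells and 197, 253 and 251 CPM in Kat5/1 to Kat5/3. In Ep400/1 to Ep400/3 it was at 608, 608 and 377 CPM. All Kat5 ko clones were below and all Ep400 ko clones above all wildtype libraries. The log2-fold change was −0.47 (standard error 0.16) for Kat5 ko and 0.74 (standard error 0.21) for Ep400 ko, and 1.17 (standard error 0.26) for Ep400 ko against Kat5 ko. As a measure of chromosome-wide shifts in these clones, the median log2 difference of 435 genes on chromosome 15 from the wildtype mean was −0.35 in Kat5/1, 0.12 in Kat5/2 and 0.26 in Kat5/3, and −0.15 to −0.11 in the Ep400 ko clones. The difference of *Rarg* itself was −0.68, −0.32 and −0.33 in Kat5/1 to Kat5/3 and 0.26 to 0.95 in the Ep400 ko clones. The part of chromosome-wide shifts in these differences was not tested.

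*Rara* (ENSMUSG00000037992, chromosome 11, 98927818 to 98974942, plus strand) is the receptor that most cell types express. It had 46.4, 40.3, 49.3 and 40.1 CPM in wildtype cells, 43.8, 44.7 and 51.3 CPM in Kat5 ko clones and 40.6, 41.1 and 61.1 CPM in Ep400 ko clones. The groups overlapped in every comparison. The log2-fold change was 0.05 (standard error 0.14) for Kat5 ko and 0.11 (standard error 0.18) for Ep400 ko, and leaving out Ep400/3 gave −0.11. Per length and within each library, the ratio of *Rarg* to *Rara* was 6.71 to 7.75 in wildtype cells and 4.61 to 5.79 in Kat5 ko clones, without overlap. It was 15.3 in Ep400/1 and 15.1 in Ep400/2, but 6.33 in Ep400/3, where *Rara* was at its highest of all libraries and *Rarg* at its lowest among the Ep400 ko clones.

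**Figure D2:**
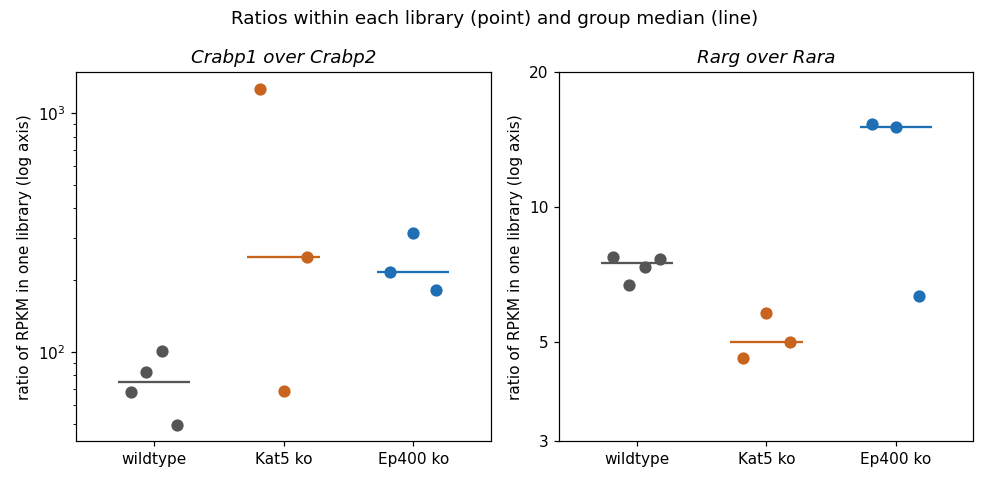
Ratio of Crabp1 to Crabp2 and of Rarg to Rara per exon length within each library (log axes), with a point for each library and a line for the group median. The Crabp ratio was 49.5 to 101 in wildtype cells against 181 to 315 in Ep400 ko clones, and the receptor ratio 4.61 to 5.79 in Kat5 ko clones against 6.71 to 7.75 in wildtype cells.

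*Rarb* (ENSMUSG00000017491, chromosome 14, 16430839 to 16819156, minus strand) is the receptor gene whose own promoter responds to retinoic acid. No read was counted on it in 9 of 10 libraries, and 5 reads (0.117 CPM) in Ep400/1. Its gene overlaps *Top2b* and *Gm48162* on the other strand, and whether the authors counted reads by strand is not given in the sources used here. Alone among the 9 genes, it did not pass the filter on low counts. A count of 0 allows up to 3 reads in these libraries, so that very low levels would not have been detectable.

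Receptor pairs bind best to direct repeats of a hexamer, and the start sites of these genes were searched for them. The hexamers were spelled AGGTCA, then AGTTCA, further GGGTCA and also GGTTCA, and were searched on both strands of windows that run from 250 bases before to 50 bases after an annotated RefSeq start (GRCm38.p6). Such windows were at hand for 7 of the 9 genes, 14 windows in all. A pair of hexamers in the same direction, with 5 bases of any letter between them, was found in 32 of 32851 windows (0.0974%), and at least a single hexamer in 43.7%. Of the 9 genes, the pair was found only in the window of *Rarb*, from 53 to 37 bases before its start. Pairs with 1 or 2 bases between the hexamers occurred in 0.222% and 0.268% of all windows and in none of these 14. The 100 bases before the start are shown on the strand of the gene for *Rarb*, which holds the pair, and for *Crabp1*, *Rarg* and *Dhrs4*, the 3 genes that edgeR called higher in Ep400 ko than in Kat5 ko clones. Where a gene has more than 1 window, 1 is shown. Capitals mark hexamers.
Rarb (chr14:16575477-16575576, minus strand): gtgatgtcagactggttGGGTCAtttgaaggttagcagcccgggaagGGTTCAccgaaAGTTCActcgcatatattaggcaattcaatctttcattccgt
Crabp1 (chr9:54764648-54764747, plus strand): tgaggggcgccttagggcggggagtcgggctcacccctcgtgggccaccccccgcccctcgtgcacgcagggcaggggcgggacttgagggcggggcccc
Rarg (chr15:102257523-102257622, minus strand): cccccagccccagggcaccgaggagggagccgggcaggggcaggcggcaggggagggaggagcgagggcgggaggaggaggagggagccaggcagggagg
Dhrs4 (chr14:55478658-55478757, plus strand): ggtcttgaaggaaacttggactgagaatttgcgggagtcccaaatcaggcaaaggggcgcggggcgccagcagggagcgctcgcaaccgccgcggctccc
*Rarb* thus shows a hexamer further upstream and then the pair GGTTCA and AGTTCA, while the 100 bases of the 3 other genes shown hold no such hexamer. In their whole length, 5 of the 14 windows (35.7%) held at least a single hexamer, in *Rara*, *Rarb*, *Rarg* and *Aldh1a1*, beside the 43.7% of all windows. A match of letters is no evidence of binding, and its absence from these windows says nothing on elements elsewhere. Over the 250 bases before the starts shown, the share of G and C was 74.4% for *Rarg*, 63.6% for *Crabp1*, 58% for *Rarb* and 55.2% for *Dhrs4*, with a median of 52.4% over all windows. The window of *Rarg* that is not shown also had 52.4%.

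*Dhrs3* (ENSMUSG00000066026, chromosome 4, 144892827 to 144928209, plus strand) encodes a retinaldehyde reductase that lowers the supply of retinoic acid and is itself induced by it. It had 2.71, 2.54, 2.37 and 3.07 CPM in wildtype cells and 5.68, 14.1 and 6.72 CPM in Ep400/1 to Ep400/3, all above wildtype. The Kat5 ko clones were split, with 3.20 CPM in Kat5/1 and 0.0989 and 0.286 CPM in Kat5/2 and Kat5/3, which corresponds to 3 and 13 reads. The log2-fold change was 1.72 (standard error 0.36) for Ep400 ko and −1.18 (standard error 0.95) for Kat5 ko, and −3.76 for Kat5 ko without Kat5/1. The SD of log2 CPM between Kat5 ko clones was 2.29 for *Dhrs3*, larger than for 98.2% of 14079 genes.

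*Dhrs4* (ENSMUSG00000022210, chromosome 14, 55478758 to 55490340, plus strand) encodes a peroxisomal reductase of retinaldehyde and other carbonyl compounds. It had 10.4, 8.73, 9.76 and 8.59 CPM in wildtype cells, 20.4, 10 and 13.2 CPM in Kat5/1 to Kat5/3 and 48.3, 42.3 and 35.7 CPM in Ep400/1 to Ep400/3. All Ep400 ko clones were above every other library, by a log2-fold change of 2.17 (standard error 0.16) or 4.49-fold against wildtype and of 1.51 (standard error 0.31) against Kat5 ko. The Kat5 ko clones overlapped with wildtype cells only through Kat5/2, and their log2-fold change was 0.61 (standard error 0.26). Of the genes followed here, *Dhrs4* had the smallest standard error in the Ep400 ko comparison, and each clone contributed a similar difference from the wildtype mean (2.36, 2.17 and 1.93 on the log2 scale).

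*Aldh1a1* (ENSMUSG00000053279, chromosome 19, 20492715 to 20643465, plus strand) oxidizes retinaldehyde to retinoic acid. It was close to the limit of detection in wildtype cells with 0.415, 0.231, 0.391 and 0.309 CPM, or 8 to 15 reads. Ep400/1 to Ep400/3 had 6.43, 1.59 and 2.84 CPM (51 to 274 reads), all above wildtype, and the log2-fold change was 3.42 (standard error 0.54). Kat5/1 and Kat5/2 had 0.165 and 0.0330 CPM, whereas Kat5/3 had 2.36 CPM, so that the log2-fold change of 1.32 (standard error 1.00) turned to −1.70 without Kat5/3. *Aldh1a7*, a close paralog that can share reads with *Aldh1a1*, had 2.46 to 4.12 CPM in wildtype cells. It was at 1.35, 0.659 and 7.49 CPM in Kat5/1 to Kat5/3 and 9.85, 3.56 and 14.9 CPM in Ep400/1 to Ep400/3. Like *Aldh1a1*, it was highest in Kat5/3 among the Kat5 ko clones. Unlike *Aldh1a1*, it was highest in Ep400/3 among the Ep400 ko clones, and Ep400/2 lay within its wildtype range. Its log2-fold change for Ep400 ko was 1.47 (standard error 0.45). How reads that fit both genes were counted is not given in the sources used here, and the values of *Aldh1a1* are uncertain in this respect. The median of 389 genes on chromosome 19 was shifted by 0.13 to 0.27 in the Ep400 ko clones and by −0.28 in Kat5/3 on the log2 scale.

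*Aldh1a3* (ENSMUSG00000015134, chromosome 7, 66390890 to 66427517, minus strand), the related enzyme that acts in the developing face and eye, was also near the limit of detection. It had 1.12, 0.838, 0.183 and 1.10 CPM in wildtype cells, 0.992, 0.132 and 0.0441 CPM in Kat5 ko clones and 1.88, 0.219 and 1.42 CPM in Ep400 ko clones. The lowest libraries of the 3 groups had 7, 2 and 7 reads, and the groups overlapped. The log2-fold change was −1.08 (standard error 0.99) for Kat5 ko and 0.54 (standard error 0.76) for Ep400 ko. Already among wildtype libraries, its SD of log2 CPM of 1.10 was larger than for 96% of genes, which gives these differences little precision.

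**Figure D3:**
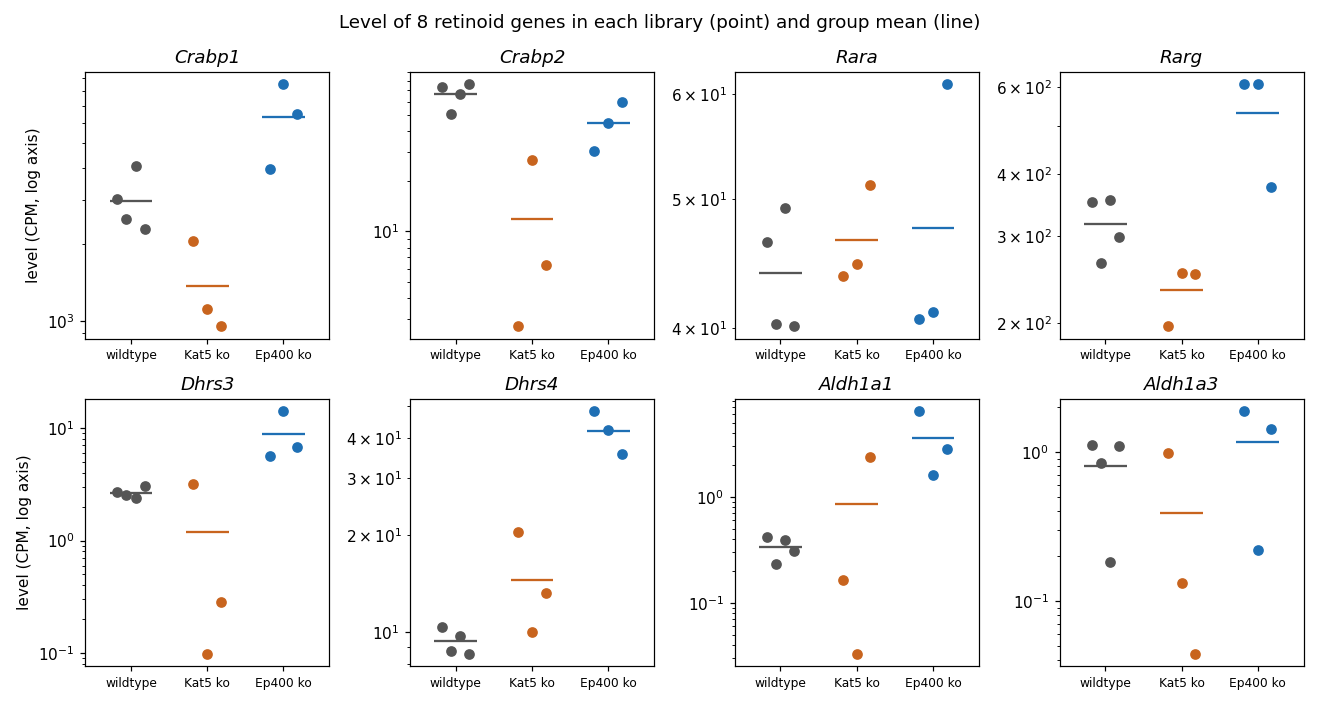
Level in each library (CPM, log axes, a different range in each panel) of 8 retinoid genes, with a point for each of 4 wildtype, 3 Kat5 ko and 3 Ep400 ko libraries and a line for the group mean. Dhrs4, Dhrs3, Aldh1a1 and Rarg of the Ep400 ko clones lie above all wildtype libraries, Crabp1, Crabp2 and Rarg of the Kat5 ko clones lie below them, and Rarb, with reads in 1 library, is not drawn.

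Over the 8 genes that passed the filter on low counts, Ep400 ko clones lay above all wildtype libraries for 4 (*Rarg*, *Dhrs3*, *Dhrs4* and *Aldh1a1*), while 16.1% of 13836 genes tested did so. With edgeR's quasi-likelihood test and an adjusted p of at most 0.05, 5 of the 8 were called higher (these and *Crabp1*) in Ep400 ko clones, beside 8% of all genes. Kat5 ko clones lay below all wildtype libraries for 3 (*Crabp1*, *Crabp2* and *Rarg*), beside 10.2% of 13434 genes. There, edgeR called 0 of the 8 genes, beside 0.625% of all genes. At an unadjusted p of at most 0.05, 4 of the 8 passed, beside 2996 of 13434 genes. DESeq2 called 2, beside 1391 of 22025 genes, and limma-voom 1, beside 98 of 13434. Since the genes had been chosen on these same contrasts, nothing is read from these counts. The calls also moved with single libraries. Without Kat5/1, 4 of the genes were called lower in Kat5 ko clones, beside 1307 of 13703 genes. Without WT/1, WT/2 or WT/4 only 2 were called in Ep400 ko clones, beside 804, 989 and 830 of all genes. Without Ep400/2, 3 were called there, beside 1438 of all genes. Of 15 alternative settings, the Ep400 ko call was lost in 10 for *Rarg*, 7 for *Crabp1*, 5 for *Dhrs3*, 2 for *Aldh1a1* and 0 for *Dhrs4*.

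Both comparisons rest on the same 4 wildtype libraries. The direct comparison of the knockouts leaves these libraries out but shares the clones. The genes had been chosen with the values of these clones in view, so nothing is read from the counts here either. All 8 genes had a positive log2-fold change of Ep400 ko against Kat5 ko, beside 6833 of 13587 genes. It ran from 0.01 (standard error 0.22) for *Rara* to 2.85 (standard error 1.20) for *Dhrs3*. *Crabp1*, *Crabp2*, *Rarg*, *Dhrs3* and *Dhrs4* were higher in all Ep400 ko than in all Kat5 ko clones, as were 20.5% of 13587 genes. edgeR called 3 of the 8 higher (*Crabp1*, *Rarg* and *Dhrs4*), beside 4.22% of all genes, and 0 to 3 when a clone was left out. The sign for *Rara* turned under 5 of 14 alternative settings.

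**Figure D4:**
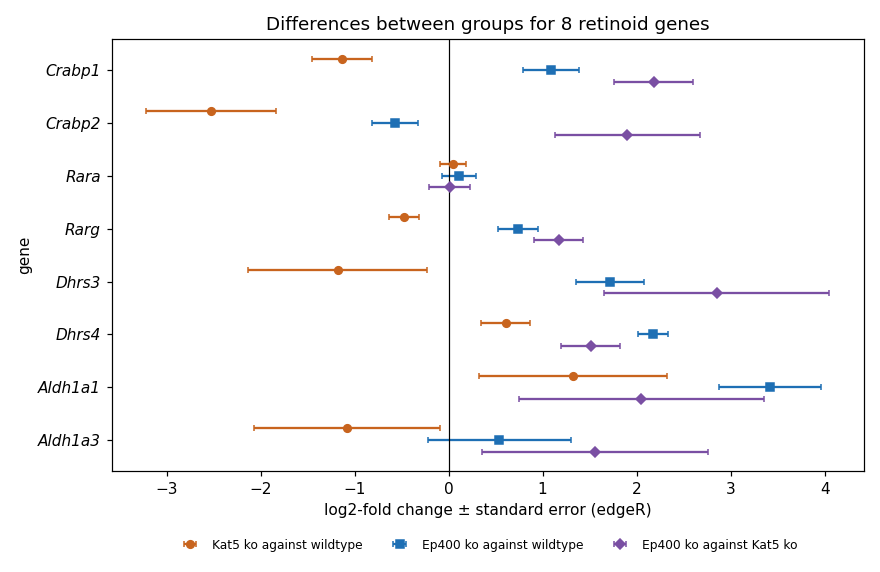
Log2-fold change with its standard error (edgeR) of 8 retinoid genes in 3 comparisons. Values for Ep400 ko against wildtype are above 0 except Crabp2 (−0.57), and those for Kat5 ko against wildtype are below 0 for 5 genes. The widest error bars belong to Dhrs3, Aldh1a1 and Aldh1a3, whose SD of log2 CPM between Kat5 ko clones was 2.29, 2.48 and 1.77. Few reads were counted on Aldh1a1 and Aldh1a3 in wildtype cells, and on Dhrs3 in Kat5/2 and Kat5/3.

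The remaining pathway was described with a list of 79 other genes of retinoid transport, metabolism, receptors, cofactors and response. Of these, 47 had enough reads to be tested in Ep400 ko against wildtype, and edgeR found 5 that rose and 3 that fell (quasi-likelihood test, Benjamini-Hochberg over all genes), beside 13.7% of all genes called. The median log2-fold change was 0.08 over the list and 0.04 over all genes tested. In Kat5 ko against wildtype, 46 were tested and 0 passed, beside 0.625% of all genes, with a median of −0.11. At an unadjusted p of at most 0.05, 9 passed there (2 higher, 7 lower), beside 2996 of 13434 genes. With DESeq2, 8 of 64 passed (2 higher, 6 lower), beside 1391 of 22025 genes. Leaving out Kat5/1 gave 9 calls among 47 tested (3 higher, 6 lower), beside 2654 of 13703 genes. The count thus turned on this clone, as did that over all genes.

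Among the enzymes, *Rdh10*, which makes the retinaldehyde for retinoic acid synthesis in embryos, rose in Ep400 ko clones. It had 9.10, 3.18, 5.51 and 8.55 CPM in wildtype cells and 16.3, 32.1 and 40.5 CPM in Ep400/1 to Ep400/3, which is a difference of 2.17 in log2 (standard error 0.41; adjusted p = 0.0138). In Kat5 ko clones it was at 7.94 to 11.4 CPM (change in log2 0.58, adjusted p = 0.386). *Akr1b8*, an aldo-keto reductase that can act on retinaldehyde, fell from 148 ± 18.6 CPM (SD, n = 4) to 75.4 ± 15.0 CPM (SD, n = 3) in Ep400 ko clones (change in log2 −0.98, adjusted p = 0.0113). These were the 2 calls among 13 tested retinol and retinaldehyde oxidoreductases. *Aldh1a2*, the main retinaldehyde dehydrogenase of the embryo trunk, had 0 reads in all wildtype and Kat5 ko libraries and at most 6 in an Ep400 ko clone.

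Of the enzymes that break down retinoic acid, *Cyp26b1* rose in Ep400 ko clones. It had 93.1, 54.4, 257 and 86.5 CPM in WT/1 to WT/4 and 455, 471 and 639 CPM in Ep400/1 to Ep400/3 (change in log2 2.09, standard error 0.48, adjusted p = 0.0245). In Kat5 ko clones, it was at 96.9 to 173 CPM and overlapped with wildtype cells. WT/3 stood above the other wildtype libraries, and the call for Ep400 ko was lost without WT/1, without WT/4 or without Ep400/3. *Cyp26a1* and *Cyp26c1* had at most 12 reads in any library.

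*Stra6*, the receptor that takes up retinol from its plasma carrier, was at 0.780 to 1.37 CPM in wildtype cells and 0.165 to 0.395 CPM in Kat5 ko clones (change in log2 −2.08, adjusted p = 0.0744). These levels rest on 27 to 54 and 6 to 12 reads. In Ep400 ko clones it was spread from 0.375 to 5.33 CPM and did not pass the test (adjusted p = 0.325). *Fabp5*, a fatty acid carrier that can bring retinoic acid to *Ppard*, had 77.2 ± 30.1 CPM (SD, n = 4) in wildtype cells, 204 ± 58.5 CPM in Kat5 ko clones and 44.9 ± 31.8 CPM in Ep400 ko clones (SD, n = 3 each). Neither value passed against wildtype (adjusted p = 0.0858 and 0.293).

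Among the partner receptors, *Nr2f1*, an orphan receptor that competes for retinoid response elements, rose from 116 ± 25.0 CPM (SD, n = 4) to 354 ± 16.1 CPM (SD, n = 3) in Ep400 ko clones (change in log2 1.61, standard error 0.18, adjusted p = 0.00281). *Ppard* fell from 68.9 ± 14.8 CPM to 42.9 ± 1.89 CPM (change in log2 −0.68, adjusted p = 0.0429), a call that was lost in 10 of 15 alternative settings, among them the removal of WT/1, WT/2, WT/3 or any Ep400 ko clone. *Rxra* and *Rxrb*, the retinoid X receptors that pair with *Rara* and *Rarg*, did not pass in either knockout (change in log2s −0.24 and −0.24 for Kat5 ko, 0.30 and 0.08 for Ep400 ko). All 14 tested corepressors and coactivators missed the threshold in both knockouts. In Ep400 ko clones, the calls for *Nr2f1*, *Rdh10*, *Akr1b8* and *Rarres1* held when any single library was left out.

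Of genes known to be induced by retinoic acid, 8 were tested beside *Dhrs3* and *Crabp2*. In Ep400 ko clones, edgeR called 2 higher (*Rarres1* and *Meis2*) and 1 lower, beside 13.7% of all genes called. *Rarres1* rose from 0.477 ± 0.355 CPM (SD, n = 4) to 13.3 ± 4.71 CPM (SD, n = 3), which is 4.79 in log2 (standard error 0.65, adjusted p = 0.0047). Only 3 to 28 reads were counted on it in wildtype libraries, against 402 to 597 in Ep400 ko clones. The size of this change is therefore uncertain. *Meis2*, a homeodomain cofactor, rose from 80.6 ± 8.67 CPM to 124 ± 24.1 CPM (change in log2 0.62, adjusted p = 0.0391), and this call was lost in 8 of 15 settings, among them the removal of any wildtype library, of Ep400/2 or of Ep400/3. In Kat5 ko clones, edgeR called 0 of these 8. At an unadjusted p of at most 0.05, 2 passed, beside 2996 of 13434 genes. *Rarres1* had 1.21, 0 and 0.0882 CPM in Kat5/1 to Kat5/3.

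In the direct comparison of Ep400 ko against Kat5 ko, 5 of 46 listed genes were called higher and 1 lower, beside 7.05% of all genes called. *Cyp26b1* differed by a log2-fold change of 2.02 (adjusted p = 0.0252), *Nr2f1* by 1.68 (adjusted p = 0.0308), *Rdh10* by 1.54 (adjusted p = 0.0479) and *Fabp5* by −2.20 (adjusted p = 0.0466). Each of these calls was lost without Kat5/2, without Kat5/3, without Ep400/2 and without Ep400/3, where 0 of the listed genes passed. Of all genes, 81, 5, 29 and 3 passed in these fits, in the same order.

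**Figure D5:**
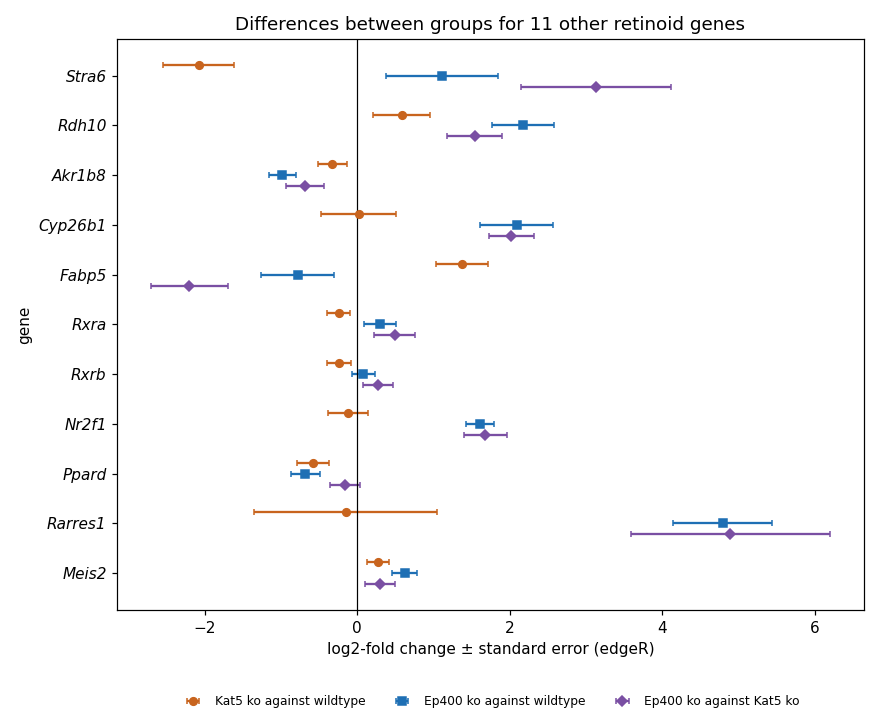
Log2-fold change with its standard error (edgeR) of 11 other retinoid genes that had enough reads, in 3 comparisons. Rdh10, Cyp26b1, Nr2f1 and Rarres1 stand at 1.61 to 4.79 for Ep400 ko against wildtype, Fabp5 stands at 1.37 for Kat5 ko and −0.78 for Ep400 ko against wildtype, and Rxra and Rxrb stay between −0.24 and 0.49.

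Within single clones, the opposing enzymes *Rdh10* and *Dhrs3* kept a ratio per length of 0.880 to 2.36 in wildtype cells and 1.60 to 4.24 in Ep400 ko clones, where both were higher. In Kat5 ko clones the ratio was 1.75 in Kat5/1, but 76.7 in Kat5/2 and 28 in Kat5/3, the clones with few reads on *Dhrs3*. The clone Kat5/1 was also the lowest of all libraries for *Crabp2* and *Rarg*, and it had the high smooth muscle markers. The part of these markers in the values of Kat5/1 was not tested.

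For each gene that was tested, the 2 genes with the most similar profile over the 10 libraries were looked up among 10930 genes with a mean of at least 100 reads. These libraries form 3 groups that differ, so that a high value partly reflects the groups. Picking the highest of 10930 genes over only 10 libraries also gives high values by itself. The values after removal of the group means come from the same pick and the same libraries. *Crabp1* was most like *Fam134a* and *Zfpl1* (Pearson correlation of log2 CPM 0.984 and 0.982 over 10 libraries). *Crabp2* was most like *D2hgdh* and *Snhg18* (0.974 and 0.943), *Rarg* like *Iscu* and *Igfbp6* (0.970 and 0.969) and *Rara* like *Tcea2* and *Trim25* (0.916 and 0.912). *Dhrs3* was most like *Rell1* and *Gm12606* (0.986 and 0.985) and *Dhrs4* like *A830082K12Rik* and *Scamp2* (0.971 and 0.970). For *Aldh1a1* these genes were *Dtnb* and *Car5b* (0.940 and 0.930), and for *Aldh1a3* *Spice1* and *Pcdhga7* (0.960 and 0.958). After removal of the group means, the values were 0.916 and 0.913 for *Crabp1*, 0.961 and 0.803 for *Crabp2*, 0.862 and 0.887 for *Rarg* and 0.934 and 0.961 for *Rara*, each in the same order of genes. They were 0.967 and 0.967 for *Dhrs3*, 0.654 and 0.817 for *Dhrs4*, 0.858 and 0.864 for *Aldh1a1* and 0.947 and 0.95 for *Aldh1a3*. The lowest was thus that of *Dhrs4* with *A830082K12Rik*. None of these genes belongs to the retinoid list.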

How the data were processed

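RNA of 4 wildtype, 3 Kat5 ko and 3 Ep400 ko libraries was measured by poly-A RNA sequencing. The authors deposited raw counts per gene; per the labels' processing notes, STAR 2.7.3, bcl2fastq 2.20, DESeq2 1.36.0, R 4.2.1 and mm10 were used, while the counting program and its use of strand are not given in the sources used here. The deposited normalized tables were not used. Samples were grouped by their labels. For each comparison, raw counts were filtered with filterByExpr, scaled by TMM and tested with the quasi-likelihood test of edgeR 4.0.16 (robust estimation, R 4.3.3) and Benjamini-Hochberg adjustment over all genes tested, with a threshold of 0.05. Robust estimation was chosen after its counts of calls had been seen. The procedure was tested on simulated counts. RPKM were computed from CPM and the joined exon length of GENCODE M21 (GRCm38, the build mm10), which matched 42462 of 43346 gene identifiers. Log2 CPM used a prior count of 2. Promoter windows are from RefSeq, and protein sequences were not used here.

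The 9 genes, the retinoid list and the marker lists were chosen with earlier results of these data known. Genes named beside the 9 were those of the list past the threshold in a knockout against wildtype, 10 further genes of the pathway whatever their values, of which 1 is not reported here, the 2 targeted genes, and the 2 most similar genes for each of the 9 that was tested. *Aldh1a7* and markers are named beside results they touch, chosen after their values were seen. Alternatives were DESeq2 1.42.0, limma-voom (limma 3.58.1), other scalings, no filter, unadjusted p, a joint fit of all libraries, removal of each library, a block for the replicate number, the thresholds of the study and, chosen after seeing the data, edgeR without robust estimation. Between libraries of a group, counts differed by more than sampling noise. Wildtype libraries are independent samples and knockout libraries are clones.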

Additional observations from a re-analysis of the deposited data

Results flagged for a closer look

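Within the 4 wildtype libraries, WT/4 was set apart for *Cyp26a1* by a single read (0.0221 CPM) beside libraries without any, which is below what these counts can resolve. Groups of 3 clones were not examined for such libraries, and chance marks about 1 in 20 groups.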

How the results depend on the processing

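The counts of calls depended strongly on the processing. For Kat5 ko against wildtype, edgeR tested 8 of the 9 genes and 46 of the 79 other retinoid genes. It called 0 of each and 84 of all genes. DESeq2, with 64 of the other retinoid genes tested, called 2, 8 and 1391. An unadjusted p gave 4, 9 and 2996, and leaving out a library 0 to 4, 0 to 9 and 1 to 2654. There, limma-voom called 1 of the 9 genes, and edgeR without a filter called 2 other retinoid genes and 286 of all genes, while a fit of all libraries called 27 of all genes. For Ep400 ko against wildtype (5, 8 and 1899), a fit of all libraries called 2 of the 9 genes. DESeq2 called 14 other retinoid genes and 3175 of all genes there. In the same order, an unadjusted p gave 22 and 4453, and the thresholds of the study, applied to the edgeR fit, 5 and 886. Leaving out a library gave 2 to 4, 4 to 11 and 804 to 2020. For Ep400 ko against Kat5 ko (3, 6 and 958), DESeq2 called 5, 12 and 3013, an unadjusted p 5, 15 and 4400, a fit of all libraries 14 other retinoid genes and 3555 of all genes, edgeR without a filter 1445 of all genes, and leaving out a library gave 0 to 3, 0 to 8 and 3 to 2537. In these fits without a clone, the remaining clones stand for the spread of their group. The cause of these shifts was not tested, other than that fewer libraries or no adjustment enter by construction. edgeR without robust estimation, chosen after seeing the data, left all counts for the retinoid genes as they were.

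Replicate numbers are shared between the groups but do not pair the libraries. Residuals of libraries with the same number correlated by 0.201, −0.0905 and 0.0472 for Kat5 ko and wildtype, by −0.0229, 0.00737 and 0.109 for Ep400 ko and wildtype, and by −0.13, 0.267 and 0.095 between the knockouts. With a replicate block, edgeR called 0 of all genes for Kat5 ko, 1 of the 9 genes, 1 other retinoid gene and 168 of all genes for Ep400 ko, and 0, 2 and 213 between the knockouts.

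Directions turned only for values whose calls missed the threshold. For Kat5 ko against wildtype, the log2-fold change of *Aldh1a1* became −0.17 with limma-voom and −0.16 with the block and ranged from −1.70 to 1.89 without single libraries, *Cyp26b1* became −0.028 with library size alone and ranged from −0.25 to 0.69, *Rarres1* from −3.20 to 0.41, *Nr2f1* from −0.45 to 0.059 and *Rara* from −0.012 to 0.12. For Ep400 ko against wildtype, the ranges were −0.11 to 0.21 for *Rara*, −0.003 to 0.45 for *Rxra*, −0.002 to 0.16 for *Rxrb* and −0.30 to 1.61 for *Stra6*. For Ep400 ko against Kat5 ko, *Rara* became −0.015 with limma-voom and −0.014 with the block and ranged from −0.21 to 0.10. *Rarb*, *Aldh1a1*, *Aldh1a3* and, in Kat5/2 and Kat5/3, *Dhrs3* rest on few reads, so that small differences could have been missed for them. The smallest difference that could have been detected was not computed.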
